A study of Rattus norvegicus with 21 samples.

Results

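Neomycin and vancomycin were compared directly in total spinal cord: 3 neomycin (NEO) libraries against 3 vancomycin (VANCO) libraries, 6 of the 21 libraries of the series, chosen by their sample titles. Every library came from wild type LEW/Crl rats 6 to 8 weeks old, dosed through the trachea over 7 days with NEO, VANCO or the buffer PBS. The cords had been homogenised and stripped of myelin on a Percoll gradient before RNA extraction, so the pellet holds a mixture of the cord's remaining cells. The 3 PBS cord libraries served to estimate the spread and to show where the buffer control lay, and sorted CD45low CD11b+ microglia (4 libraries each for NEO and VANCO) gave the same contrast in separate libraries. The labels do not tell whether each library was 1 rat or a pool. The p-values therefore speak only to the spread between libraries, which may be partly technical.

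Neomycin is an aminoglycoside, which binds the bacterial ribosome and acts mainly on Gram-negative bacteria. Vancomycin is a glycopeptide, which blocks cell wall synthesis in Gram-positive bacteria. Microglia are the resident macrophages of the central nervous system and a minority of its cells, and in bulk RNA a change in the number of cells of a type and a change in RNA per cell cannot be told apart. The direct comparison asks whether the cord transcriptome differed between animals given antibiotics of these 2 classes.

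The deposited tables list genes by Ensembl ID without names. The gene table used here paired 0 of the 32883 IDs with a symbol, so genes are described by their levels, by their pattern across libraries and by where they were expressed, and only 4 are given by ID. For the same reason the tissue label was not checked against cell type markers. The 6 libraries held 17711194 to 25114844 counts each, with a count for 18262 to 19166 IDs, and 14677 IDs passed the filter on low counts and were tested. Replicate numbers 1, 2 and 3 recur in every treatment, and libraries with equal numbers were treated as pairs, with the number as a block in the model. The p-values of this paired model rest on the spread between libraries that is left after group and number are taken out.

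Neomycin cords differed from vancomycin cords in a small set of genes, most of them higher after neomycin. Of the 14677 genes tested with edgeR's quasi-likelihood test, 64 (0.436%) passed an adjusted p of 0.05, 57 of them (0.388%) higher after NEO and 7 (0.0477%) lower. The median log2 fold change, NEO minus VANCO, was 0.81 for the 57 genes (range 0.24 to 1.75) and -0.42 for the 7 (range -1.27 to -0.29), while the median over all tested genes was -0.0031 with quartiles of -0.076 and 0.076. Of the 57 higher genes, 18 differed at least 2-fold, 25 between 1.5-fold and 2-fold, and 14 by less than 1.5-fold. Of the 7 lower genes 1 differed at least 2-fold and the other 6 by less than 1.5-fold. The number of calls depended on the model: edgeR with no block called 0 genes. The smallest adjusted p was then 0.0626, and 331 genes were under 0.05 before adjustment. DESeq2 with no block called 25, of which 23 were among the 64, and limma-voom with no block 0. With the pairing kept but all 21 libraries in 1 model, edgeR called 6 genes, 5 of them among the 64.

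**Figure D1:**
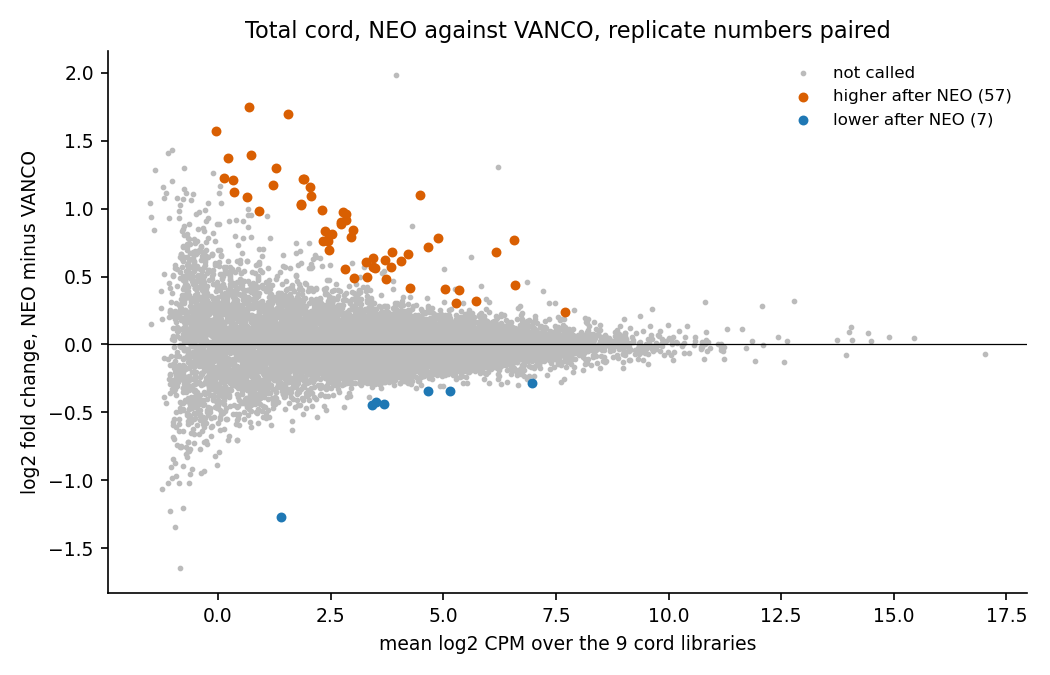
Each point is 1 of 14677 genes in total cord; the x axis is the mean log2 CPM over the 9 cord libraries and the y axis the log2 fold change, NEO minus VANCO, from the paired model. The 57 called genes above 0 (orange) outnumber the 7 below (blue), and most called genes lie at low to moderate levels.

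The fold changes themselves hardly moved with the block. Every treatment held each replicate number, and such a balanced design leaves the fitted fold changes nearly fixed. The 57 genes had a median log2 fold change of 0.80 without the block against 0.81 with it, and all 57 stayed positive and all 7 negative. What differed was the standard error, with a median over all tested genes of 0.125 without the block and 0.0886 with it. Without the block the adjusted p of the 57 genes ran from 0.0626 to 1.00.

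The higher genes were mostly of low to moderate abundance, as were most of the genes tested. The median of their group means was 10.6 CPM (library-scaled counts with TMM factors) in NEO libraries, 5.83 CPM in VANCO libraries and 5.85 CPM in PBS libraries. In VANCO libraries 24 of the 57 averaged under 5 CPM and 4 at least 50 CPM, and in NEO libraries these numbers were 10 and 5. The shares of all tested genes at these cuts are not given here. By mean level over the 6 libraries, 18 of the 57 lay among the 2769 genes at 1 to 5 CPM and 26 among the 4565 at 5 to 20 CPM. A further 10 lay among the 4990 genes at 20 to 100 CPM. Only 3 lay among the 1284 genes at 100 CPM or more, and 0 among the 1069 below 1 CPM, where the median standard error was 0.358 against 0.0539 in the highest band.

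ENSRNOG00000022839 had the largest log2 fold change among called genes that were higher in all 3 pairs. It had 5.43, 9.10 and 5.71 CPM in NEO replicates 1, 2 and 3, and 1.95, 2.90 and 1.39 CPM in the VANCO replicates. Every NEO library lay above every VANCO library, and the PBS libraries, at 2.31, 1.75 and 1.23 CPM, lay in and just below the VANCO range. The log2 fold change was 1.69 with the block (SE 0.18, edgeR adjusted p 3.61e-06) and 1.68 without it (SE 0.30, adjusted p 0.237), while DESeq2 kept the call with no block (adjusted p 0.000532). The call held without any 1 of the 9 cord libraries and without all libraries of any 1 number, but not in a paired model of all 21 libraries (adjusted p 0.147), where ENSRNOG00000001369 and ENSRNOG00000057824 had 0.206 and 0.536.

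ENSRNOG00000001369 came next. Its NEO libraries had 2.03, 3.81 and 3.06 CPM, its VANCO libraries 1.46, 1.25 and 0.638 CPM and its PBS libraries 1.02, 1.43 and 1.17 CPM for replicates 1, 2 and 3. The groups did not overlap, but pair 1 differed least, with log2 ratios of 0.45, 1.53 and 2.09 in pairs 1, 2 and 3. With the block it had a log2 fold change of 1.40 with an SE of 0.25 (edgeR adjusted p 0.00304). Without the block the adjusted p was 0.396, DESeq2 gave 0.0616 with the block, and the call was lost without NEO replicate 2 or 3, without VANCO replicate 2 or 3 and without all libraries numbered 3 (edgeR adjusted p 0.0550, 0.0661, 0.0666, 0.0787 and 0.144).

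ENSRNOG00000057824 was the called lower gene with the largest difference. NEO replicates 1, 2 and 3 had 1.62, 1.75 and 1.47 CPM, close to each other, and the VANCO replicates 3.84, 4.60 and 3.19 CPM. All NEO libraries were below all VANCO libraries, while PBS spanned 1.72 to 3.51 CPM, between the antibiotics in its mean of 2.67 ± 0.903 CPM (SD, n = 3). Its log2 fold change of -1.27 had an SE of 0.21 with the block (edgeR adjusted p 0.00142) and of 0.25 without it (adjusted p 0.265). DESeq2 with no block kept the call (adjusted p 0.0268), and the edgeR call was lost without VANCO replicate 1 (adjusted p 0.0570).

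ENSRNOG00000009265, the next lower gene, shows what the pairing does. It had 12.4, 8.31 and 6.92 CPM in NEO replicates 1, 2 and 3 and 15.1, 12.6 and 9.92 CPM in VANCO replicates 1, 2 and 3, so the groups overlapped while each pair differed in the same direction. PBS replicates 1, 2 and 3 followed the same order of numbers, at 13.4, 11.5 and 7.64 CPM. Its log2 fold change of -0.45 had an SE of 0.10 with the block (edgeR adjusted p 0.0310) and of 0.26 without it (adjusted p 1.00). DESeq2 with the block gave an adjusted p of 0.357. The edgeR call was lost without NEO replicate 2 or 3, without any 1 VANCO library and without all libraries of any 1 number, with adjusted p between 0.0741 and 0.297. In the 12 microglia libraries this gene had 0 to 2 counts each.

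**Figure D2:**
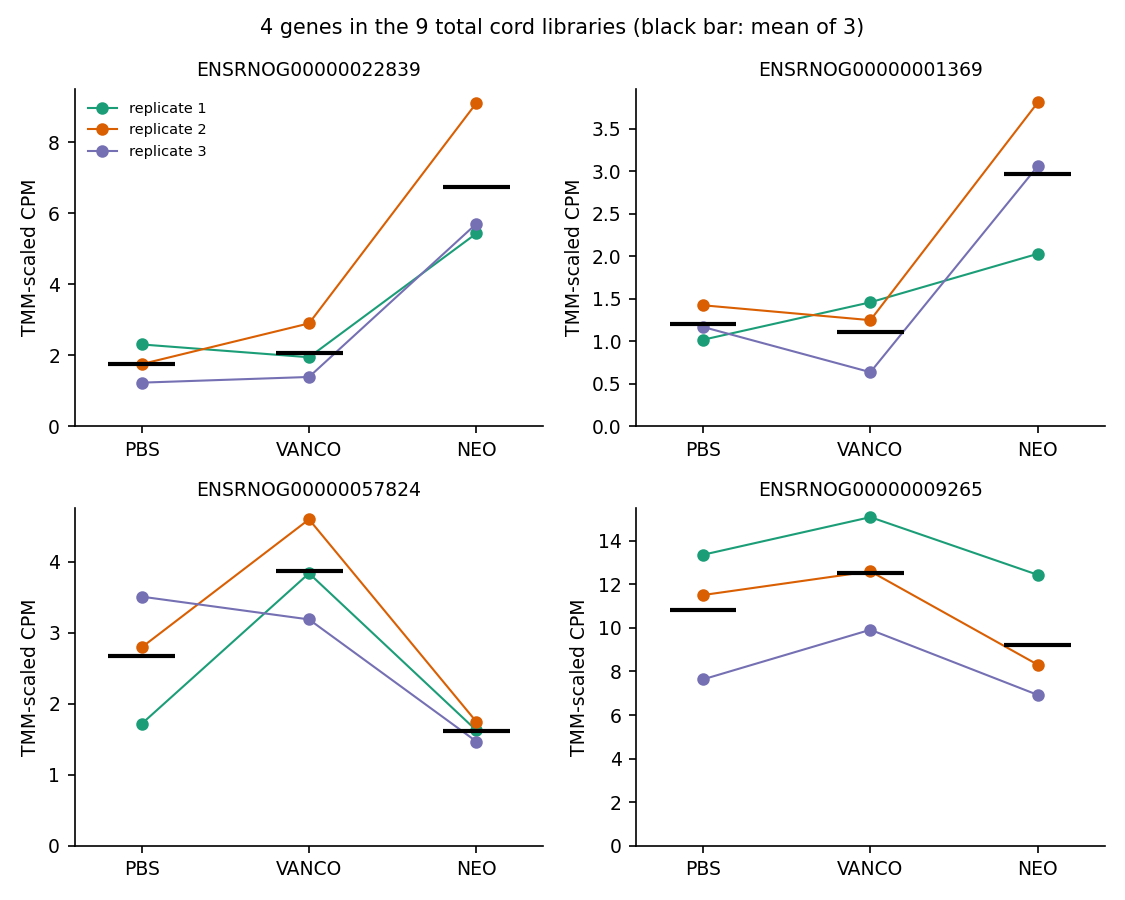
TMM-scaled CPM of the 4 genes given by ID in the 9 total cord libraries, with 1 point per library, lines joining equal replicate numbers and black bars for the mean of 3. For ENSRNOG00000022839, ENSRNOG00000001369 and ENSRNOG00000057824 the NEO and VANCO points do not overlap, and for ENSRNOG00000009265 they do although all 3 lines fall from VANCO to NEO.

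Across the called genes the pairs carried similar weight. The 57 genes had a median log2 ratio of NEO to VANCO of 0.79 in pair 1, 0.83 in pair 2 and 0.71 in pair 3, and the largest of a gene's 3 ratios fell in these pairs for 19, 21 and 17 genes. All 3 pairs were positive for 55 of the 57, as they were for 15% of all tested genes. The other 2 genes had the largest and the third largest fitted fold change of all called genes and were positive in pairs 1 and 2 and negative in pair 3. The first had 4.06 ± 3.75 CPM in NEO and 1.16 ± 0.699 CPM in VANCO (SD, n = 3), with log2 ratios of 1.30, 2.26 and -0.040, and the second 2.31 ± 1.93 CPM and 0.756 ± 0.541 CPM, with 1.38, 1.89 and -0.56. The 7 lower genes were negative in all 3 pairs, as were 15.6% of all tested genes. All NEO libraries lay above all VANCO libraries for 47 of the 57 genes and below them for 2 of the 7. Over all tested genes these shares were 3.78% and 3.43%, but the genes were called on the same contrast, so the counts are descriptive.

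**Figure D3:**
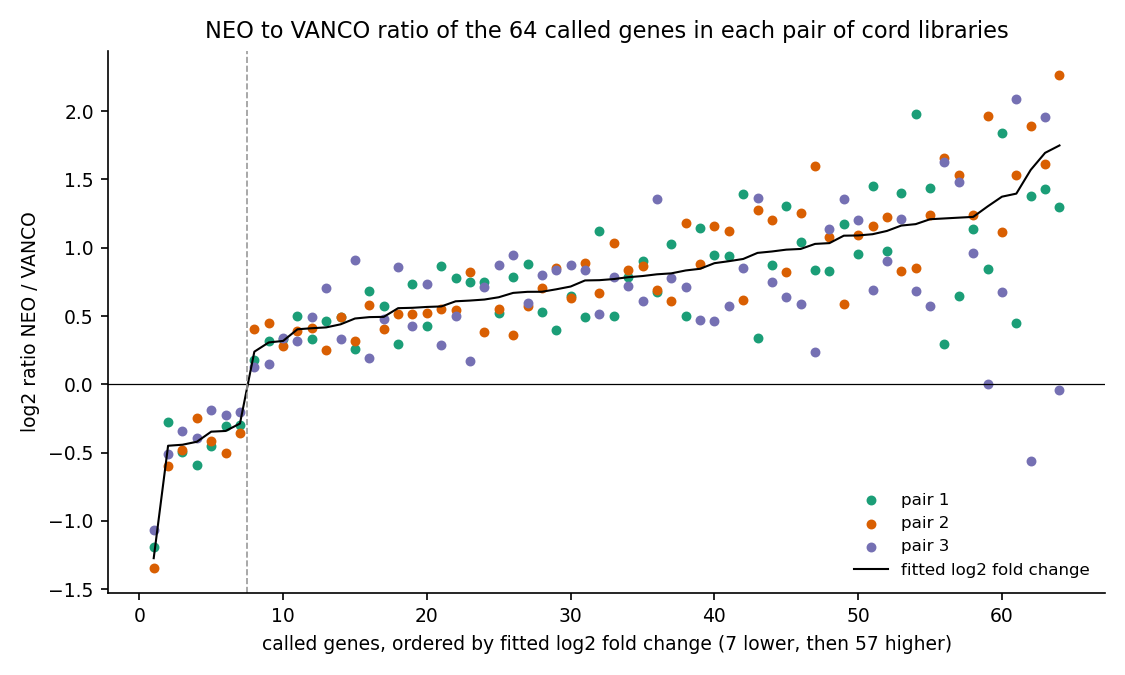
log2 ratio of NEO to VANCO in each pair of cord libraries (coloured points) for the 64 called genes, ordered along the x axis by fitted log2 fold change (black line). Points of all 3 pairs lie on the same side of 0 for 62 of the 64 genes, and the 2 exceptions have a pair 3 point at -0.040 and -0.56.

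The buffer control lay close to vancomycin for most of these genes. The 57 genes had a median log2 fold change of 0.77 for NEO minus PBS (range 0.20 to 1.92) and of -0.024 for VANCO minus PBS (range -0.86 to 0.38). The median CPM of the 57 genes was 10.5, 12.1 and 8.60 in NEO replicates 1, 2 and 3, 5.46, 6.40 and 5.22 in VANCO and 6.71, 5.32 and 5.42 in PBS. The PBS mean was nearer to the VANCO mean than to the NEO mean, on a log scale, for 56 of the 57 genes and for all 7 lower genes. The same share over all tested genes, and their medians against PBS, are not given here, so the position of PBS is described for the called genes only. The 7 lower genes had a median of -0.24 for NEO minus PBS and 0.11 for VANCO minus PBS. These contrasts share libraries with the comparison that chose the genes, which by itself tilts NEO and VANCO away from each other, so they are given as values only.

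The called genes were spread over microglial and other genes of the cord. The tissue in which each gene was mainly expressed was taken from PBS microglia against PBS cord. These libraries do not enter the NEO minus VANCO difference itself. The PBS cord libraries did enter the spread behind the 64 calls, and the tissue contrast took its spread from all 21 libraries. Of 15546 genes, 84.0% differed between these tissues with TMM factors and 80.5% with RLE factors (edgeR). Of the 57 higher genes 33 (57.9%) were higher in PBS microglia and 12 (21.1%) higher in PBS cord, while of all 14677 genes tested in cord 43.0% and 41.4% were. With RLE in place of TMM factors the numbers were 29 (50.9%) and 14 (24.6%), against 31.1% and 50.2% of all genes, and 13 of the 57 were at least 8-fold higher in microglia, against 4.54%. With TMM factors 13 of the 57 were at least 8-fold higher in microglia, against 6.01% of all tested genes, and 6 were at least 8-fold higher in cord, against 24.0%. With TMM factors the 7 lower genes divided into 3 with more RNA in microglia, 3 with more in cord and 1 without a call. With RLE factors these numbers were 2, 3 and 2, and ENSRNOG00000057824 was the gene that lost its call.

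Microglia-enriched genes took a larger share of the counts in NEO cords than in VANCO cords. The 1304 genes at least 8-fold higher in PBS microglia took 1.52, 1.51 and 1.37% of the counts in NEO cord replicates 1, 2 and 3, 1.44, 1.40 and 1.34% in VANCO and 1.45, 1.41 and 1.37% in PBS. The NEO share was higher in 3 of 3 pairs, by 0.0733 ± 0.0404 percentage points (SD, n = 3 pairs), with means of 1.47% and 1.39%. The 101 genes at least 64-fold higher in PBS microglia, a limit chosen after seeing the data, took 0.0242% in NEO and 0.0182% in VANCO. This difference was larger relative to the VANCO share but uneven, with 0.0232, 0.0307 and 0.0187% in NEO replicates 1, 2 and 3. The VANCO replicates had 0.0162, 0.0212 and 0.0172% and the PBS replicates 0.0178, 0.0174 and 0.0183%. Without the called genes the remaining 97 took 0.0179% and 0.0149%, a difference of 0.00297 ± 0.00285 percentage points (SD, n = 3 pairs). The 3524 genes at least 8-fold higher in PBS cord took 37.8, 38.0 and 39.4% in NEO and 39.0, 39.0 and 39.9% in VANCO, lower after NEO in 3 of 3 pairs. An exact sign-flip permutation test of 3 pairs cannot go below a two-sided p of 0.25, so these shares were not tested, and their part in the 64 calls was not tested. The 882 microglia-enriched genes tested in cord had a median log2 fold change of 0.053, NEO minus VANCO, and 13 (1.47%) of them were called higher, with a median of 1.09 and a lowest value of 0.40. The 6 higher genes that were at least 8-fold cord-enriched had a median of 0.58, in a class of 3524 genes with a median of -0.019. The called genes of both classes were picked on this same contrast, so their distance from the class medians is built in.

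Most genes that were higher after neomycin in cord also had higher fitted values after neomycin in sorted microglia. Of the 57 genes 53 were tested there, and 47 had a positive log2 fold change, NEO minus VANCO, with a median of 0.60 (range -0.50 to 1.84). Over the 11862 genes tested in both, 48.3% were positive in microglia, and the median over all 12570 genes tested in microglia was -0.0082. The 53 genes had a median log2 ratio of 0.46, 0.44, 0.61 and 0.47 in microglia pairs 1, 2, 3 and 5, with 45, 39, 48 and 42 of them positive. The paired edgeR model called 15 of the 53 higher in microglia (28.3%), where 20 of all 12570 genes (0.159%) were called higher, 1 (0.00796%) lower and so 0.167% in either direction. The 15 genes make up 26.3% of the 57 genes higher in cord and 75% of the 20 higher in microglia. The labels do not say whether cord and microglia came from the same rats. Microglia pair 2 stood apart, with an SD of the log2 ratio over all tested genes of 0.81 against 0.33 to 0.38 in the other microglia pairs. Without its NEO library 49 of 54 tested genes were positive.

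The count of 15 depended on single microglia libraries and on the block. Leaving out NEO replicate 1, 2, 3 or 5 gave 10, 21, 2 or 6 genes, and leaving out VANCO replicate 1, 2, 3 or 5 gave 1, 4, 1 or 3. The genes called higher in microglia over all genes numbered 14, 54, 3 or 9 and 1, 6, 1 or 4 in the same settings, so the overlap moved with the total. Without NEO replicate 2 the model also called 21 genes lower in microglia, against 1 with all libraries. In microglia edgeR with no block called 0 genes, while 269 were under 0.05 before adjustment. The number of genes with a positive value stayed between 45 and 50, of 53 or 54 tested, in those settings.

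The 15 genes called in both had a median log2 fold change of 0.96 in cord (range 0.56 to 1.40) and 1.12 in microglia (range 0.62 to 1.84). In PBS samples 3 of them were at least 8-fold higher in microglia, 7 were higher in microglia by less, 3 did not differ at the threshold and 2 were higher in cord. ENSRNOG00000001369 was among them, with 4.85, 4.34, 4.88 and 4.03 CPM in microglia NEO replicates 1, 2, 3 and 5 and 1.79, 0.957, 1.33 and 1.11 CPM in VANCO. Each NEO microglia library lay above each VANCO library, with a log2 fold change of 1.84 and an SE of 0.28 (edgeR adjusted p 0.0389).

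ENSRNOG00000022839 had 8.85, 17.9, 43.4 and 7.88 CPM in microglia NEO replicates 1, 2, 3 and 5 and 5.43, 8.89, 12.2 and 3.72 CPM in VANCO. NEO was higher within each number, but the groups overlapped. The log2 fold change in microglia was 1.18 (SE 0.29), with an edgeR adjusted p of 0.322. The 13 higher genes that were at least 8-fold microglia-enriched had a median log2 fold change of 1.09 in cord and 0.39 in microglia, and 3 of the 13 were called in microglia. They were chosen for their calls in cord, which raises the cord median, so these medians do not compare the tissues. The 6 tested lower genes had microglia values from -0.37 to 0.14, and 0 of them were called by edgeR, with ENSRNOG00000057824 at -0.27 (SE 0.25, adjusted p 0.761).

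**Figure D4:**
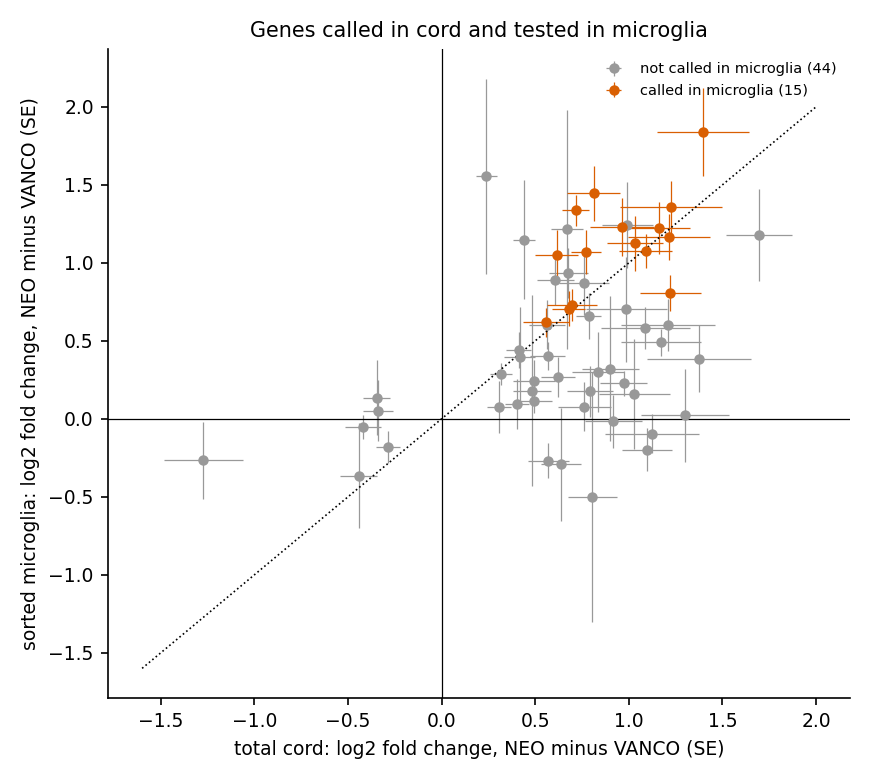
log2 fold change, NEO minus VANCO, in total cord (x axis) and in sorted microglia (y axis) for the 59 called cord genes tested in microglia, with bars of 1 SE and a dotted line of equal values. The 15 genes called in microglia (orange) lie above 0 on both axes, and 6 of the 53 genes higher in cord lie below 0 in microglia.

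Whether the antibiotics differed by a different amount in microglia and cord was tested as an interaction in a model of all 21 libraries. Of 15546 genes 17 (0.109%) were called, 15 (0.0965%) with a higher and 2 (0.0129%) with a lower ratio of NEO to VANCO in microglia, and 1 of these was among the 64 genes of the cord comparison. That gene, chosen for mention after its values were seen, had 39.3 ± 10.5 CPM in NEO cord, 18.2 ± 4.46 CPM in VANCO cord and 16.1 ± 1.11 CPM in PBS cord (SD, n = 3). It was 1 of the 13 microglia-enriched genes. Its log2 fold change was 1.10 (SE 0.13) in cord and -0.20 (SE 0.14, edgeR adjusted p 0.746) in microglia, with an interaction of -1.31 (SE 0.21, edgeR adjusted p 0.0307). For the other 56 higher genes and the 7 lower ones a difference between the tissues was not called, with a median standard error of the interaction of 0.263 on the log2 scale over the 57. The edgeR interaction model with no block called 0 genes, while 350 were under 0.05 before adjustment. With the block limma-voom called 0 and DESeq2 180. The edgeR count was also 0 without any 1 of the 6 NEO and VANCO cord libraries.

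The number of called genes in cord varied with the library left out. Leaving out NEO replicate 1, 2 or 3 gave 43, 55 or 64 genes, of which 36, 35 or 43 were among the 57 higher genes. Leaving out VANCO replicate 1, 2 or 3 gave 36, 59 or 51 genes, with 34, 36 or 37 among the 57. With every library of number 1, 2 or 3 left out, 42, 129 or 52 genes were called. All 57 kept a positive log2 fold change and all 7 a negative one in each of these settings. The genes were called on the same libraries, so the kept signs are largely built in. Without VANCO replicate 1 edgeR called 0 lower genes, and without VANCO replicate 3 it called 13, of which 3 were among the 7.

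**Figure D5:**
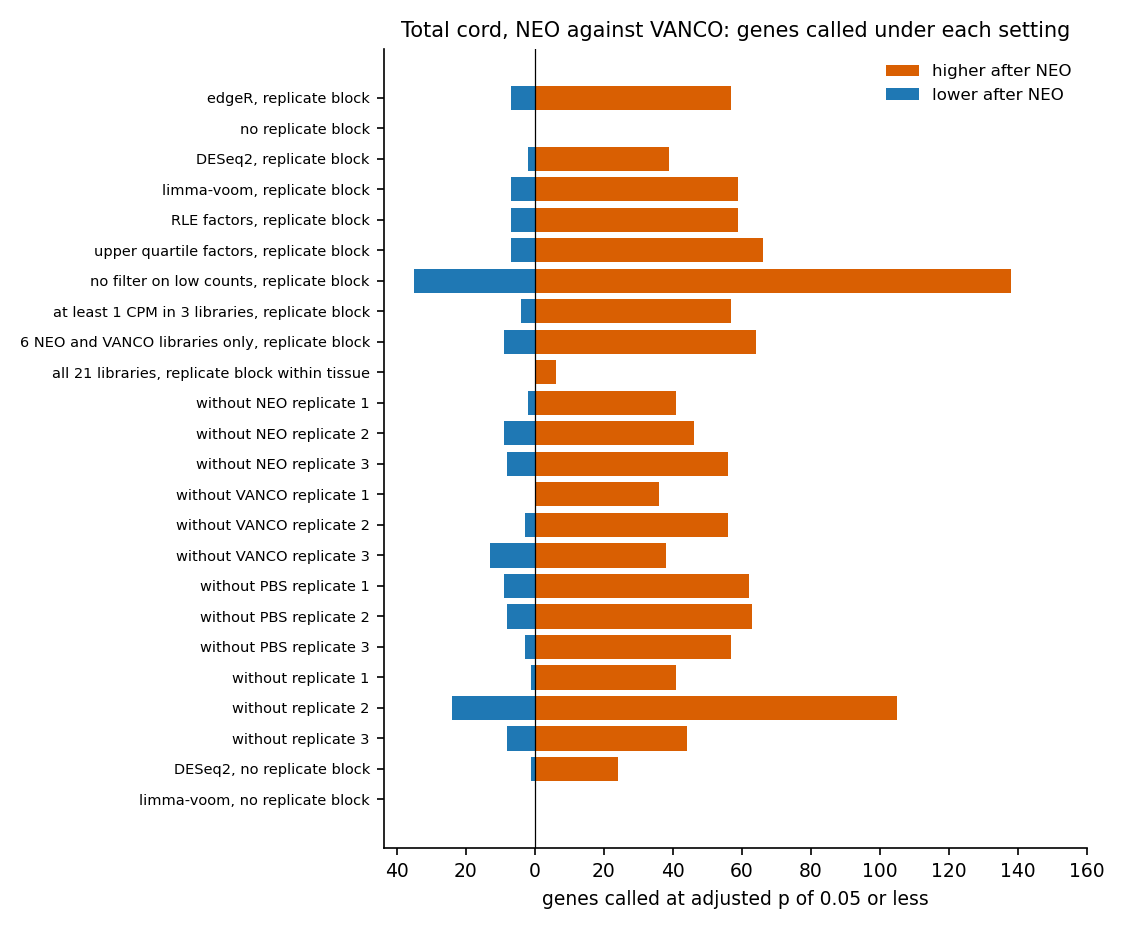
Number of genes called higher (orange, right of 0) and lower (blue, left of 0) after NEO than after VANCO in total cord, for each test, scaling, filter and set of libraries. Higher genes outnumber lower genes wherever genes were called, and edgeR and limma-voom with no replicate block called 0.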

How the data were processed

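Gene counts were deposited by the authors for each library as raw whole numbers per rat Ensembl gene ID. The submitters' processing notes name the build rn6, featureCounts 1.5.0-p1, the aligner STAR 2.5.2a and bcl2fastq 2.20.0.422. For annotation release, strand setting and multiply aligned reads the setting is not given in the sources used here, which makes overlapping, antisense and near-identical genes uncertain. Groups and replicate numbers came from the titles.

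The 9 cord libraries were fitted in R 4.3.3 with edgeR 4.0.16: filterByExpr, TMM factors, a robust quasi-likelihood F test with the group and the replicate number as terms, and Benjamini-Hochberg adjustment over all tested genes at 0.05. The same model was fitted to the 12 microglia libraries and, with numbers within tissue, to all 21. Only the paired cord fit of NEO against VANCO was checked on simulated counts. It recovered 84% of genes changed 1.5-fold and 100% of those changed 4-fold, and 4.15% of its calls were false. The simulated counts had differences between replicate numbers built in, so they cannot tell whether the block is right for these data. The fits of microglia, of all 21 libraries and without the block were not simulated. SEs come from the log2 fold change and its F statistic. Depth was 16769410 to 25114844 counts in cord and 9020480 to 22435887 in microglia.

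No label says what a replicate number stands for. Deviations from group means correlated between NEO and VANCO cord libraries of equal number at r = 0.431 to 0.588 across genes, and otherwise at -0.485 to 0.00909; deviations cancel within groups, so part of this gap is built in. In microglia equal numbers had r of 0.244 to 0.794. Libraries of a group differed beyond sampling noise (chi-square per degree of freedom 8.35 to 27.8).

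Alternatives were DESeq2 1.42.0, limma 3.58.1 with voom, other factors, filters and sets of libraries. The members, the 25 gene lists and the tests were chosen with earlier results of these data known. The lists and a promoter search needed symbols and were not used. The 2 higher and 2 lower IDs printed are those with the largest log2 fold change among called genes with 1 direction in all 3 pairs and a mean of at least 1 CPM in NEO or VANCO.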

Additional observations from a re-analysis of the deposited data

Results flagged for a closer look

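The difference between NEO and VANCO was called as unequal in microglia and cord for 17 genes by the paired interaction test, 15 with a higher and 2 with a lower NEO to VANCO ratio in microglia. The count was 4 without microglia NEO replicate 2 and 281, 228 and 249 without microglia NEO replicates 1, 3 and 5. It was 15, 0, 0 and 126 without microglia VANCO replicates 1, 2, 3 and 5, and 0 without any 1 of the NEO and VANCO cord libraries. The part of single libraries in these 17 calls was not tested further.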

How the results depend on the processing

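The count of 64 called cord genes was 0 in edgeR with no replicate block and 6 with all 21 libraries in a paired model. It was 41 with DESeq2 and the block, and 173 (138 higher, 35 lower) with no filter on low counts. With no block DESeq2 gave 25 and limma-voom 0; both were chosen after seeing the data. Leaving out 1 library, or all of 1 number, gave 36 to 129, where the share of higher genes ran from 74.5% without VANCO replicate 3 to 100% without VANCO replicate 1, against 89.1%. RLE and upper quartile factors, limma-voom with the block, a filter of 1 CPM and the 6 compared libraries alone gave 61 to 73 genes. All 57 and all 7 genes kept their sign in these settings, which is largely built in, since they were called on the same libraries. The interaction count of 17 was 0 with no block, 180 with DESeq2, 0 with limma-voom and 0 to 281 without 1 library, a setting chosen after seeing the data. The count of 15 genes also called in microglia was 0 with no block and 1 to 21 without 1 library. The excess of microglia-enriched counts after NEO was 0.0733 percentage points. For genes 64-fold enriched by TMM and RLE, a limit chosen after seeing the data, it was 0.006 and 0.0058. These sets hold few counts, with shares of 0.0242% against 0.0182% and 0.021% against 0.0152%. Without called genes the differences were 0.00297 ± 0.00285 and 0.00273 ± 0.00275 (SD, n = 3 pairs), with NEO higher in 3 and 2 pairs. The medians against PBS moved by less than the spread between pairs. The cause of these differences was not tested. The gene lists were not run under any setting, since they needed gene names.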

Other observations

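Most of the variation between the 9 cord libraries followed the replicate number. Of the sum of squares of log2 CPM over the 14677 tested genes, 55.2% lay between replicate numbers, 16.5% between treatments and 28.3% in the rest. These shares are not adjusted for degrees of freedom, and much of the treatment share would arise without any treatment effect, given the size of the rest. The log2 ratios of NEO to VANCO in different pairs, which share no library, correlated weakly across these genes (Pearson r = 0.129 for pairs 1 and 2, 0.198 for pairs 1 and 3 and 0.0545 for pairs 2 and 3; genes are not independent replicates). At least 2-fold higher after NEO were 84, 111 and 167 genes in pairs 1, 2 and 3, and at least 2-fold lower 49, 59 and 35.

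Of the 20 genes higher after neomycin than after vancomycin in microglia, all 20 were tested in cord and all had a positive fitted value there. The median over all genes tested in cord was -0.0031, and 15 of the 20 are the shared genes described above. The 20 calls fell to 0 in edgeR with no block and to 1 without microglia VANCO replicate 1 or 3. The 5 that were not called in cord had cord log2 fold changes from 0.0037 to 0.16, with edgeR adjusted p from 0.406 to 0.996.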
